A study of Homo sapiens with 6 samples.

Results

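The 57 genes described here encode the machinery that brings proteins into the endoplasmic reticulum (ER), attaches their first sugar chains and folds them. They were listed by name, with earlier results of these data known, as members of 11 functional groups: the sensors of the unfolded protein response, the HSP70 and HSP90 chaperones with their cofactors, the lectin chaperones, the enzymes of disulfide formation, ER-associated degradation, the SEC61 channel with SEC62 and SEC63, the translocon-associated protein complex (TRAP), the signal recognition particle (SRP) with its receptor, the signal peptidase, the GET pathway and the oligosaccharyltransferase (OST). The group of the sensors also holds XBP1, a transcription factor. The deposited table holds 60624 genes, of which 14778 had a mean of at least 1 TPM and were tested, and all 57 members were among them. TPM is a level of transcript abundance that is already divided by the length of each transcript and scaled to the same total in each library.

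The data are RNA-seq of A549, a widely used cell line from a human lung adenocarcinoma, in 3 siCTR libraries transfected with a control small interfering RNA (siRNA) and 3 siCEP20 libraries transfected with siRNA against CEP20, a protein of the centrosome and centriolar satellites. The labels give 3 days of transfection in both groups and no other treatment or genetic change. One label field names a plasmid transfection, which the study's methods do not describe for these libraries. The methods list more than 1 siRNA against CEP20, and the labels do not say which was used. No label states that the 3 libraries of a group came from separate cultures, so the p-values measure the spread between these libraries, which may be technical.

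Most secreted and membrane proteins are recognised by SRP as they leave the ribosome, docked on the SRP receptor and threaded through the SEC61 channel, where signal peptidase removes the signal peptide and OST transfers a preassembled sugar chain to asparagine. Inside the ER, the HSP70 chaperone BiP, the lectin chaperones calnexin and calreticulin and the protein disulfide isomerases fold the chain, and ER-associated degradation removes what does not fold. When unfolded chains accumulate, the sensors IRE1 (gene ERN1), ATF6 and PERK raise the transcription of many of these genes in the unfolded protein response. Lung epithelial cells rely on this pathway for surfactant proteins, mucins and receptors.

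The targeted gene was lower in the siCEP20 libraries. CEP20 (ENSG00000133393; chromosome 16 of hg38, 15865719 to 15888625) was at 29.2, 30.5 and 35.1 TPM in siCTR replicates 1 to 3 and at 16.2, 15.3 and 17.3 TPM in siCEP20 replicates 1 to 3. The groups did not overlap, and p was 0.1 in an exact permutation test (two-sided), the lowest that 3 against 3 libraries can reach. Of the markers listed for A549, KRT8, KRT18, AKR1B10 and NQO1 were between 874 and 2421 TPM in all 6 libraries. KRT19, CDH1 and AKR1C1 were between 11.1 and 237 TPM, and EPCAM was at most 3.85 TPM. These markers differed between the groups at adjusted p under 0.05 (limma). KRT8, KRT18, KRT19, CDH1 and EPCAM were higher in siCEP20, and AKR1B10, AKR1C1 and NQO1 were lower. The means in siCTR and siCEP20 were 1587 and 2292 TPM for KRT8, and 11.8 and 23.2 TPM for CDH1. They were 1.04 and 3.38 TPM for EPCAM, and 232 and 184 TPM for AKR1C1. PTPRC, CD3E, HBB, COL1A2 and DCN, which mark blood cells and fibroblasts, were at most 0.0183 TPM, and PECAM1, CDH5 and LUM at most 0.21 TPM. COL1A1, on the fibroblast list, was at 5.52 TPM in siCTR and 18.9 TPM in siCEP20, and CD68, on the blood list, at 18.9 and 33.8 TPM, and whether these 2 genes bear on any result was not tested. Between 14429 and 14987 genes per library reached 1 TPM, and the depth of each library is unknown because TPM keeps no read counts.

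Log2 fold changes are differences of siCEP20 minus siCTR on the log2(TPM + 1) scale, tested across all 14778 genes with limma and adjusted by the Benjamini-Hochberg method. A gene is said to have risen or fallen where its adjusted p was under 0.05, and is called where its fold change was in addition over 1.5 or under 0.67, the thresholds of the study. Over all tested genes the median was 0.13, and scaling the libraries by their median of ratios moved it to -0.0058, so changes are also given relative to that median.

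Of the 57 members, 1 was called higher and 6 were called lower, beside 11.2% and 4.61% of all tested genes. ERO1A was the member called higher, and TMEM258, EDEM1, SDF2L1, CRELD2, SSR4 and SEC61B were those called lower. At adjusted p under 0.05 without the fold threshold, 5 members rose, 15 fell and 37 did not pass, beside 30.2% of all tested genes that rose and 13.2% that fell. The 3 siCEP20 libraries lay wholly above the 3 siCTR libraries for 8 members and wholly below them for 20, whereas 38.4% of all tested genes lay above and 17.0% below. The median log2 fold change of the members was -0.09, which is -0.22 relative to all tested genes, and 48 of the 57 lay below the median of all tested genes. This split depended on the scaling. With median-of-ratios scaling 2 members rose and 33 fell at the same threshold, while 19.7% of all tested genes rose and 21.8% fell. The sign of 11 members turned with that scaling, of 8 with quantile normalization and of 9 with values corrected for transcript length and GC content.

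**Figure D1:**
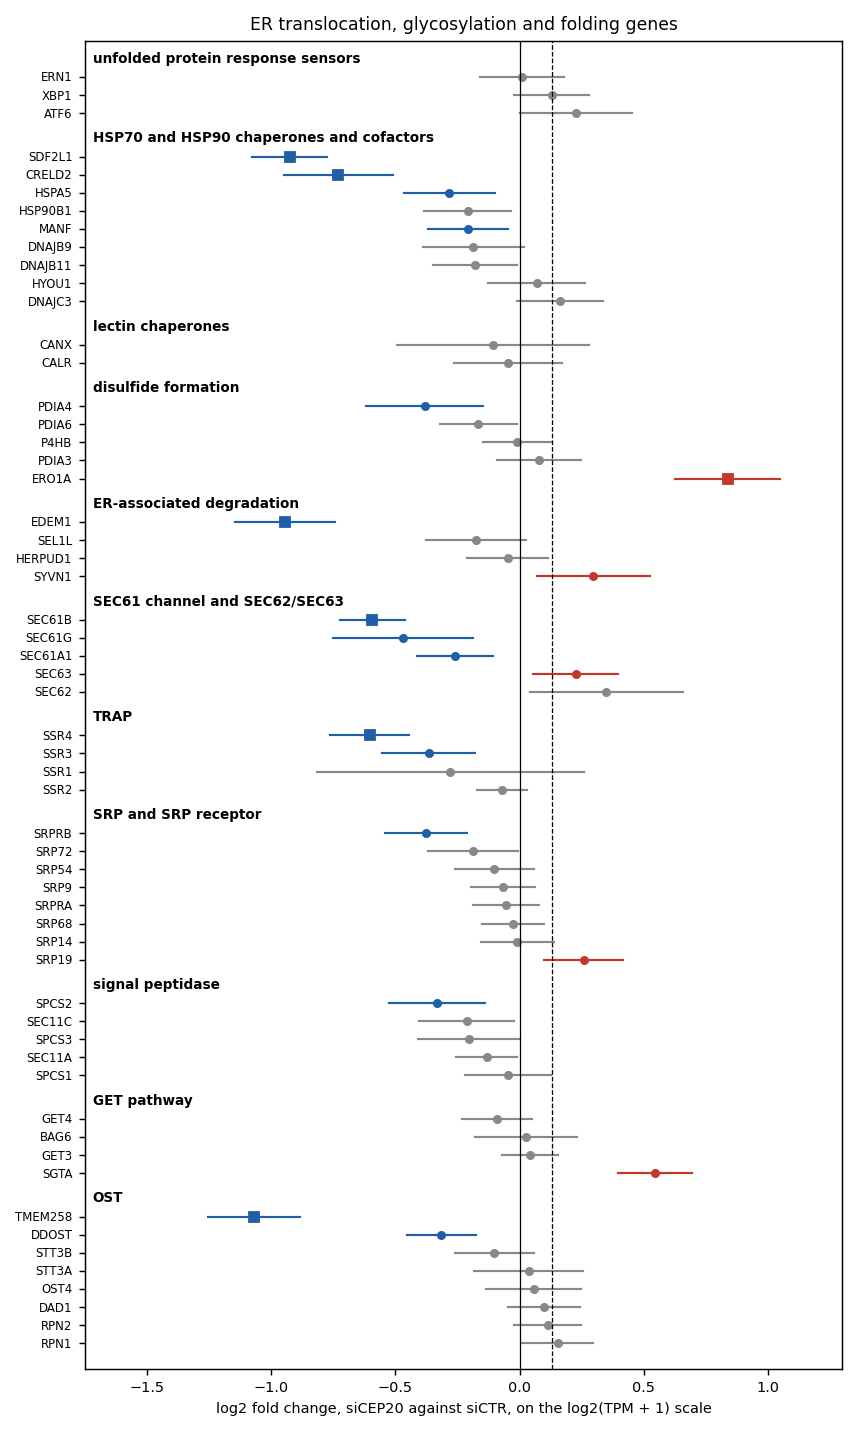
Log2 fold change (siCEP20 against siCTR, log2(TPM + 1) scale) of each member with its 95% confidence interval, by functional group. Squares are called members, blue and red mark members that fell or rose at adjusted p under 0.05, grey those that did not pass, and the dashed line is the median of all tested genes (0.13), and the blue squares lie between -1.07 (TMEM258) and -0.59 (SEC61B).

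Within each library, the median of the members relative to all tested genes, set against the siCTR mean of each gene, was 0.002, 0.06 and -0.08 in siCTR replicates 1 to 3 and -0.23, -0.22 and -0.23 in siCEP20 replicates 1 to 3. The 3 siCEP20 values lay below the 3 control values, which centre near 0 because each gene was set against its siCTR mean. The 3 siCEP20 libraries share that reference. With quantile normalization the members' median relative to all tested genes was -0.11. Replicate 2 of siCTR had the highest TPM of the 3 controls for 40 of the 57 members, but for only 34.9% of all tested genes. Over all tested genes, replicate 3 was the highest control most often, for 46.6%. Among the 16 members that are chaperones, lectins or disulfide enzymes, siCTR replicate 2 was the highest control for 14. Without that library, the signs of CALR, CANX, P4HB and HERPUD1 turned and RPN1 passed as higher. Those values are given with each gene.

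Several chaperone genes are known targets of the unfolded protein response and carry an ER stress response element (ERSE) in their promoters, read as CCAAT, 9 bases, CCACG, or the related ERSE-II, read as ATTGG, 1 base, CCACG. Both were sought on both strands in the RefSeq promoters (GRCh38.p14), 250 bases before to 50 after each start site. ERSE was found in 27 of 35116 promoters (0.0769%) and ERSE-II in 19 (0.0541%), and no promoter held both. Promoters were matched for 51 of the 57 members and not for STT3B, GET4, PDIA3, RPN1, SRPRA and SPCS1. ERSE was present in 7 members (HSPA5, CRELD2, XBP1, CALR, CANX, HSP90B1 and PDIA6) and ERSE-II in 3 (SDF2L1, HERPUD1 and HYOU1). The 5 stretches below are shown because they put the same motif beside different changes. HSPA5 (chr9:125241366-125241434, minus strand), CRELD2 (chr22:49918529-49918597, plus) and SDF2L1 (chr22:21642089-21642149, plus) fell, whereas XBP1 (chr22:28800578-28800646, minus) and HERPUD1 (chr16:56932000-56932060, plus) did not pass. Each is written 5′ to 3′ on the strand of its gene, and capitals mark the motif, which reads CGTGG to ATTGG or CGTGG to CCAAT where it lies on the other strand.
HSPA5: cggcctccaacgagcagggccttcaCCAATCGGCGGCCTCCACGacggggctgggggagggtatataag
CRELD2: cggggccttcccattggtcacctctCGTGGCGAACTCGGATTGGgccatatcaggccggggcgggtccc
SDF2L1: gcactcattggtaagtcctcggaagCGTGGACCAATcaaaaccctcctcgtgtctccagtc
XBP1: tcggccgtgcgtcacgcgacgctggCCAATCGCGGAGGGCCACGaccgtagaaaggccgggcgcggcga
HERPUD1: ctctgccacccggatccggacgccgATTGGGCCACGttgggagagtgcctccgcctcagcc

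Of the 10 members with either motif, 3 fell and 0 rose, with a median log2 fold change of -0.14 and a range of -0.93 to 0.13. Of the 41 members whose promoters held neither, 12 fell and 5 rose, with a median of -0.10 and a range of -1.07 to 0.84. The ranges overlapped, and members with the motif were found both among the largest decreases (SDF2L1) and among values above 0 (XBP1). The stretch shown for CRELD2 also lies in the promoter of ALG12, a mannosyltransferase gene transcribed in the other direction. ALG12 was at 19.0 TPM in siCTR and 18.7 TPM in siCEP20 on average, a log2 fold change of -0.02, while CRELD2 fell by 0.73.

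The group of the sensors holds ATF6, ERN1 and XBP1, which is not a sensor but a target of IRE1. These 3 genes did not pass in the fit without rescaling, though 2 of them did under 1 other setting each. PERK (gene EIF2AK3), listed with the further genes described below, did not pass either (log2 fold change 0.18, adjusted p = 0.221 by limma). ATF6, a membrane-bound transcription factor released by cleavage, was at 17.7, 21.0 and 20.3 TPM in siCTR and 21.2, 23.0 and 25.4 TPM in siCEP20. Its libraries did not overlap, but the log2 fold change of 0.23 had an adjusted p of 0.0928 (limma). XBP1, whose mRNA is spliced by IRE1 into an active transcription factor, was at 261, 272 and 271 TPM in siCTR and 267, 303 and 310.3 TPM in siCEP20, so the groups overlapped (log2 fold change 0.13, adjusted p = 0.146 by limma). Without siCEP20 replicate 1, XBP1 passed as higher (0.19, adjusted p = 0.0304). ERN1 was at 34.7 ± 1.96 and 34.9 ± 1.81 TPM (SD, n = 3 per group), a log2 fold change of 0.01 with a 95% confidence interval from -0.16 to 0.18. With the length and GC correction it was -0.24 and passed as lower (adjusted p = 0.0102 by limma). A gene-level TPM does not separate the spliced from the unspliced XBP1 mRNA.

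In the group of HSP70 and HSP90 chaperones and their cofactors, 4 of 9 members fell and 0 rose. SDF2L1 (ENSG00000128228; chromosome 22, 21642302 to 21644299), which works with BiP and its J-proteins to keep chains soluble, was at 263, 265 and 237 TPM in siCTR and at 128, 141 and 132 TPM in siCEP20. Every siCEP20 library lay below every control. The log2 fold change was -0.93 (SE 0.0653, adjusted p = 5.44e-05 by limma). CRELD2 (ENSG00000184164; chromosome 22, 49918167 to 49927540), an ER protein induced by stress that is known as a disulfide isomerase-like factor, was at 250.1, 279 and 209.8 TPM in siCTR and at 146, 144 and 151 TPM in siCEP20. Its groups did not overlap either, with a log2 fold change of -0.73 (SE 0.0958, adjusted p = 0.000695 by limma). CRELD2 overlaps ALG12 on the opposite strand.

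HSPA5, which encodes BiP, the main HSP70 of the ER, was at 3095, 3567 and 2867 TPM in siCTR and at 2481, 2589 and 2730.2 TPM in siCEP20. The libraries did not overlap, and the log2 fold change of -0.28 passed (SE 0.0799, adjusted p = 0.0213 by limma). Without siCTR replicate 2 it was -0.20 (adjusted p = 0.0483), without siCEP20 replicate 1 or 2 it no longer passed (-0.25 and -0.28), and with quantile normalization its direction turned to 0.07. HSPA5 passed as lower in 10 of the 15 other settings. MANF, a small secreted cofactor of BiP, fell by 0.21 (adjusted p = 0.0438 by limma), but passed in only 6 of these settings. It did not pass without siCTR replicate 2 (-0.14) or 3 (-0.23), or without siCEP20 replicate 1 or 2 (-0.18 each). Nor did it with quantile normalization (-0.15) or the length and GC correction (-0.18). The other 5 members did not pass. HSP90B1, the ER form of HSP90, had a log2 fold change of -0.21, which was -0.12 without siCTR replicate 2 and 0.0079 with quantile normalization but passed as lower in 6 of the 15 other settings. The J-proteins DNAJB9, DNAJB11 and DNAJC3, which stimulate BiP, had -0.19, -0.18 and 0.16, and the nucleotide exchange factor HYOU1 had 0.07, or 0.17 without siCTR replicate 2. The SDF2L1 level per unit of HSPA5, as a ratio of TPM, was 0.0850, 0.0744 and 0.0828 in siCTR and 0.0517, 0.0546 and 0.0483 in siCEP20, so the ratios of the groups did not overlap.

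**Figure D2:**
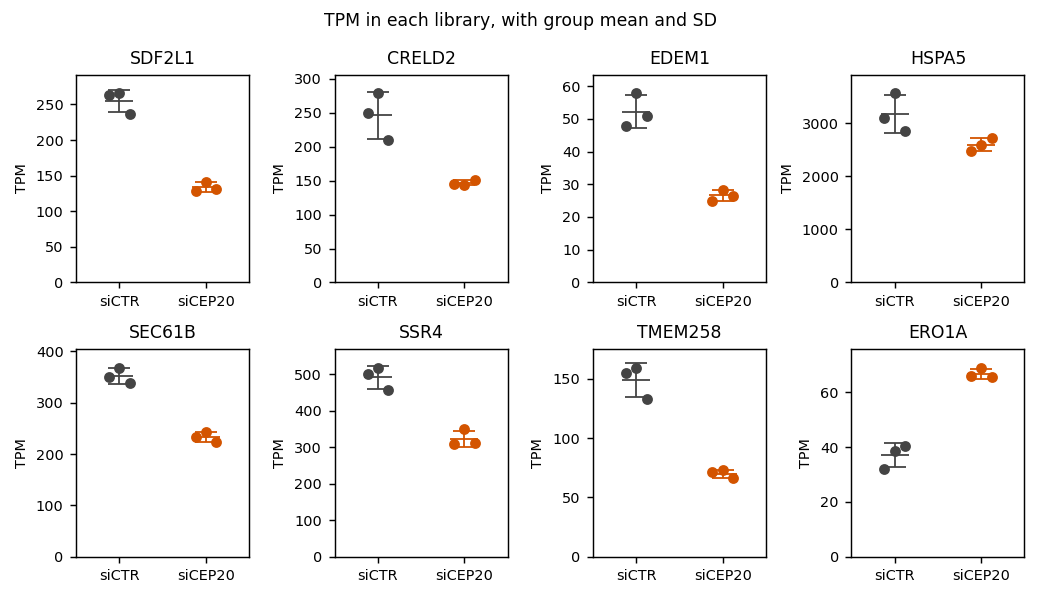
TPM of 8 members in each of the 3 siCTR and 3 siCEP20 libraries (points), with the group mean and SD (bars). In the panels of SDF2L1, CRELD2, EDEM1, HSPA5, SEC61B, SSR4 and TMEM258 every siCEP20 point lies below every siCTR point, and for ERO1A the siCEP20 points (65.4 to 68.9 TPM) lie above the siCTR points (32.0 to 40.5 TPM).

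The lectin chaperones, which hold glycoproteins through their last glucose, did not pass. Calnexin (CANX) was at 852, 1094 and 754 TPM in siCTR and 764, 1042 and 707 TPM in siCEP20, and its log2 fold change of -0.11 had an interval from -0.49 to 0.28. CALR, which encodes calreticulin, was at 1602, 1794 and 1402 TPM in siCTR and 1436, 1512 and 1685 TPM in siCEP20. The groups of both genes overlapped, and the sign of both turned without siCTR replicate 2, to 0.04 for CANX and for CALR.

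Among the 5 genes of disulfide formation, 1 rose and 1 fell. ERO1A (ENSG00000197930; chromosome 14, 52639915 to 52695900), the oxidase that passes electrons from protein disulfide isomerase to oxygen, was at 32.0, 38.7 and 40.5 TPM in siCTR and at 65.7, 68.9 and 65.4 TPM in siCEP20. The groups were far apart, with a mean at 180.0% of control and a log2 fold change of 0.84 (SE 0.0916, adjusted p = 0.000305 by limma). PDIA4, a large disulfide isomerase, was at 997, 1268 and 934 TPM in siCTR and at 800.0, 819 and 814 TPM in siCEP20, also without overlap. Its log2 fold change was -0.38 (SE 0.102, adjusted p = 0.0174 by limma), and -0.25 without siCTR replicate 2, its highest control. PDIA4 did not pass with quantile normalization (-0.26, adjusted p = 0.071 by limma) or with no filter on low TPM. P4HB, the most abundant disulfide isomerase here at 1530.2 TPM in siCTR, had a log2 fold change of -0.01, which was 0.033 without siCTR replicate 2 and 0.25, passing as higher, with quantile normalization (adjusted p = 0.00678 by limma). PDIA3, which binds the lectins, had 0.08, and PDIA6 had -0.17, neither of which passed.

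Of the 4 genes of ER-associated degradation, 1 rose and 1 fell. EDEM1 (ENSG00000134109; chromosome 3, 5187646 to 5219958), which trims mannose from misfolded glycoproteins and so marks them for disposal, was at 47.8, 57.7 and 50.9 TPM in siCTR and at 24.9, 28.3 and 26.5 TPM in siCEP20. Each siCEP20 library was well below each control, with a mean at 51.0% of control and a log2 fold change of -0.94 (SE 0.0882, adjusted p = 0.000156 by limma). SYVN1, the ubiquitin ligase HRD1, was at 132, 146 and 159 TPM in siCTR and 163, 171 and 204 TPM in siCEP20. Its log2 fold change of 0.30 passed narrowly (adjusted p = 0.0408 by limma) and did not pass without siCTR replicate 1 or 2 or siCEP20 replicate 2 or 3, with values between 0.20 and 0.33. It was 0.14 with median-of-ratios scaling and 0.15 with the length and GC correction, and passed with neither. SYVN1 overlaps the ribosomal protein gene FAU on its own strand, and FAU was at 895 TPM in siCTR and 403 TPM in siCEP20. SEL1L, the partner of HRD1, and HERPUD1, a scaffold of the same complex, had log2 fold changes of -0.18 and -0.05 and did not pass. That of HERPUD1 was 0.0029 without siCTR replicate 2.

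Of the SEC61 channel itself, SEC61A1, SEC61B and SEC61G fell in the fit without rescaling, while of the accessory genes SEC63 rose and SEC62 did not pass. SEC61B passed as lower in each of the 15 other settings, and SEC61A1 and SEC61G in 11 each. SEC61A2, listed with the further genes described below, did not pass (log2 fold change 0.02). SEC61B (ENSG00000106803; chromosome 9, 99222064 to 99230615), the beta subunit, was at 351, 368 and 338 TPM in siCTR and at 233, 243 and 223 TPM in siCEP20. Its groups were separate, with a log2 fold change of -0.59 (SE 0.0562, adjusted p = 0.000165 by limma), which is just past the fold threshold. Leaving out siCTR replicate 2 or siCEP20 replicate 3 gave -0.56 each and ended the call through the fold threshold alone. SEC61A1, which encodes the subunit that forms the pore, was at 274, 285 and 255 TPM in siCTR and at 215, 221 and 244 TPM in siCEP20, again without overlap. The log2 fold change was -0.26 (adjusted p = 0.0149 by limma), and it was -0.22 without siCTR replicate 2 (adjusted p = 0.054), -0.22 without siCEP20 replicate 1 (adjusted p = 0.0511) and -0.24 without siCEP20 replicate 2 (adjusted p = 0.0514). SEC61A1 overlaps MGLL and RUVBL1 on the opposite strand. MGLL was at 20.2 TPM in siCTR and 38.4 TPM in siCEP20, and the values of RUVBL1 are not reported here.

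SEC61G, the gamma subunit, fell by 0.47 (adjusted p = 0.0157 by limma) and its highest siCEP20 library (244 TPM) was close to its lowest control (251 TPM). It just missed the threshold without siCTR replicate 1 or 2 (-0.40 and -0.42) or siCEP20 replicate 1 (-0.38). SEC63, a J-protein that recruits BiP to the channel, rose by 0.23 (adjusted p = 0.0386 by limma) in the fit without rescaling. It passed with siCTR replicate 3 left out but with no other library left out (0.18 to 0.26), and its sign turned to -0.02 with values corrected for the length and GC content of transcripts. SEC62, which binds SEC63, had a log2 fold change of 0.35 with an adjusted p of 0.0669. The 5 genes summed to 1008, 1034 and 914 TPM in siCTR and 707, 756 and 789.6 TPM in siCEP20, 76.2% of control, so the sums did not overlap.

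**Figure D3:**
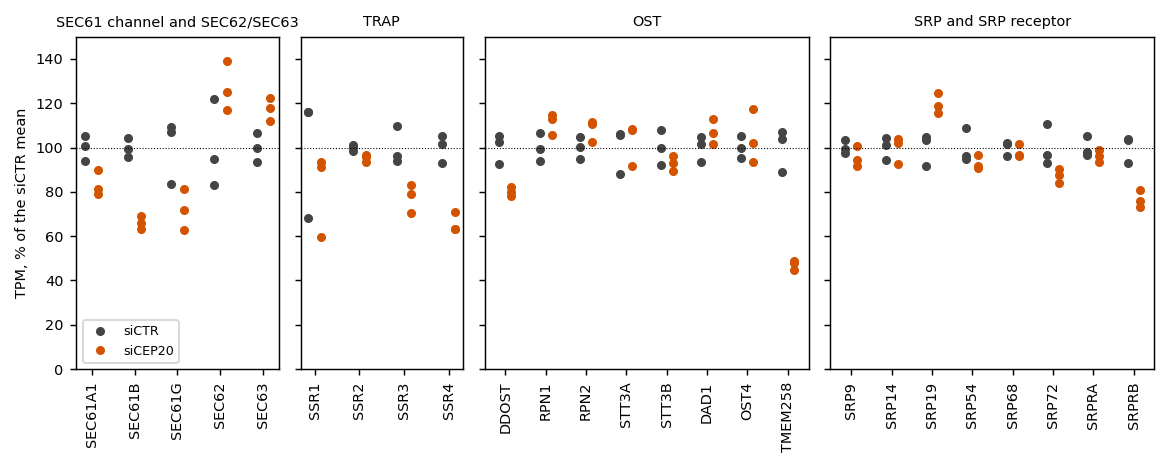
TPM of each subunit gene in the 3 siCTR (grey) and 3 siCEP20 (orange) libraries, as a percentage of that gene's siCTR mean, for the SEC61 channel with SEC62 and SEC63, TRAP, OST and SRP with its receptor. In OST the points of TMEM258 lie near 47.1% and those of DDOST near 80.2%, while the other 6 subunits overlap their controls.

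TRAP, a set of 4 membrane proteins beside the channel that help some signal peptides to enter, had 2 genes that fell and 0 that rose. SSR4 (ENSG00000180879; chromosome X, 153793516 to 153798499) was at 500.2, 518 and 456 TPM in siCTR and at 309.9, 349 and 310.5 TPM in siCEP20. The groups did not overlap, with a log2 fold change of -0.60 (SE 0.0691, adjusted p = 0.000376 by limma). The call was lost at the fold threshold without siCEP20 replicate 1, siCEP20 replicate 3 or siCTR replicate 2, with values of -0.58, -0.58 and -0.57. SSR4 overlaps IDH3G on the opposite strand, which had a log2 fold change of 0.04. SSR3 was at 231, 269.5 and 237 TPM in siCTR and 194, 204 and 173 TPM in siCEP20, and fell by 0.37 without overlap (adjusted p = 0.00791 by limma). SSR2 had -0.07, and SSR1 had -0.28 with an SE of 0.234. In SSR1, siCTR replicate 2 (59.4 TPM) and siCEP20 replicate 3 (52.2 TPM) were each below the other libraries of their group, and without siCTR replicate 2 its value was -0.53. The ratio of SSR4 to SSR2 was between 0.888 and 0.979 in siCTR and between 0.617 and 0.696 in siCEP20.

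Of the 8 genes of SRP and its receptor, SRPRB fell, SRP19 rose and 6 did not pass. SRPRB, the membrane-anchored beta subunit of the receptor, was at 63.2, 63.5 and 56.8 TPM in siCTR and 44.7, 49.4 and 46.4 TPM in siCEP20, a separation with a log2 fold change of -0.38 (adjusted p = 0.00395 by limma). SRPRA, the subunit that binds SRP, had -0.05, and the ratio of SRPRB to SRPRA went from between 0.478 and 0.540 in siCTR to between 0.387 and 0.424 in siCEP20. SRP19, which primes the RNA of the particle for SRP54, was at 68.0, 77.6 and 76.8 TPM in siCTR and 92.3, 85.6 and 88.1 TPM in siCEP20. It rose by 0.26 (adjusted p = 0.0186 by limma), but not past the threshold without siCEP20 replicate 1 (0.23, adjusted p = 0.0632) or with median-of-ratios scaling (0.10). The other 5 particle proteins had log2 fold changes from -0.19 (SRP72) to -0.01 (SRP14).

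Signal peptidase had 1 gene that fell and 4 that did not pass, all with values below 0. SPCS2, an accessory subunit, was at 133, 154 and 163 TPM in siCTR and 127, 114 and 114 TPM in siCEP20, and the highest siCEP20 library was just below the lowest control. Its log2 fold change was -0.33 (adjusted p = 0.0137 by limma). SPCS2 has processed copies in the annotation, the highest of which reached 52.1 TPM, and whether they shared reads with it was not tested. SEC11C, a catalytic subunit, was at 108, 127 and 107 TPM in siCTR and 92.1, 106 and 96.3 TPM in siCEP20, and its log2 fold change of -0.21 had an adjusted p of 0.0701. The summed level of the 5 genes was 659.6 ± 13.5 TPM in siCTR and 578 ± 12.9 TPM in siCEP20 (SD, n = 3 per group).

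The GET pathway, which inserts proteins anchored by their C-terminal end, had 1 gene that rose. SGTA, the cochaperone that receives such proteins first, was at 78.5, 77.4 and 84.4 TPM in siCTR and at 111, 117 and 124 TPM in siCEP20. The groups did not overlap, and the log2 fold change of 0.54 had an adjusted p of 0.000455 (limma), but lay under the fold threshold. GET4 was at 56.4, 56.6 and 53.0 TPM in siCTR and 50.4, 53.6 and 51.6 TPM in siCEP20, overlapping, with -0.09. GET3, the ATPase that carries the protein to the membrane, and BAG6, the scaffold that holds GET4, had 0.04 and 0.03 and did not pass.

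In OST, the enzyme that transfers the sugar chain, 2 of 8 genes fell and 0 rose, and the subunits were unequal. TMEM258 (ENSG00000134825; chromosome 11, 61768501 to 61792802), a small membrane subunit, had the largest decrease of all 57 members on this scale, while after the length and GC correction that of EDEM1 was larger (-1.17 against -0.99). It was at 155, 159 and 133 TPM in siCTR and at 71.2, 73.0 and 66.5 TPM in siCEP20. The lowest control was thus far above the highest siCEP20 library, with a mean at 47.1% of control and a log2 fold change of -1.07 (SE 0.0807, adjusted p = 6.9e-05 by limma). TMEM258 overlaps MYRF on the opposite strand, and MYRF was at 19.0 TPM in siCTR and 40.5 TPM in siCEP20, a change in the other direction.

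DDOST, a subunit needed to hold the catalytic core together, was at 337, 328 and 297 TPM in siCTR and at 250.5, 257 and 264 TPM in siCEP20, also without overlap. It fell by 0.32 (SE 0.0606, adjusted p = 0.00404 by limma). The catalytic subunits STT3A and STT3B had log2 fold changes of 0.04 and -0.10, the scaffold subunits RPN1 and RPN2 had 0.15 and 0.11, and the small subunits DAD1 and OST4 had 0.10 and 0.06, and these 6 did not pass. Without siCTR replicate 2, RPN1 passed as higher (0.20, adjusted p = 0.0469 by limma). The ratio of TMEM258 to OST4 was 0.307, 0.286 and 0.250 in siCTR and 0.143, 0.135 and 0.106 in siCEP20. That of DDOST to RPN1 was 1.14, 1.03 and 1.06 in siCTR and 0.793, 0.750 and 0.784 in siCEP20, whereas that of STT3A to STT3B overlapped, at 0.854 to 1.11 and 0.986 to 1.12. Summed, the 8 OST genes stood at 98.2% of control.

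By summed TPM without rescaling, the groups were ordered from the SEC61 channel with SEC62 and SEC63 (76.2% of control) and TRAP (80.3%) through the HSP70 and HSP90 chaperones (82.8%) and signal peptidase (87.7%) to the sensors and the GET pathway (109% each). Abundant genes weigh most in such sums. Of the chaperone sum of 6262 TPM in siCTR, HSPA5 held 3176 TPM and HSP90B1 1417 TPM. Of the sum of the sensor group, 322 TPM in siCTR, XBP1 held 268 TPM. The sums of all 57 members were 19996, 22225 and 19130 TPM in siCTR and 17548, 18655 and 18831 TPM in siCEP20, 89.7% of control, and the 3 siCEP20 sums lay below the lowest control sum by a small margin.

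**Figure D4:**
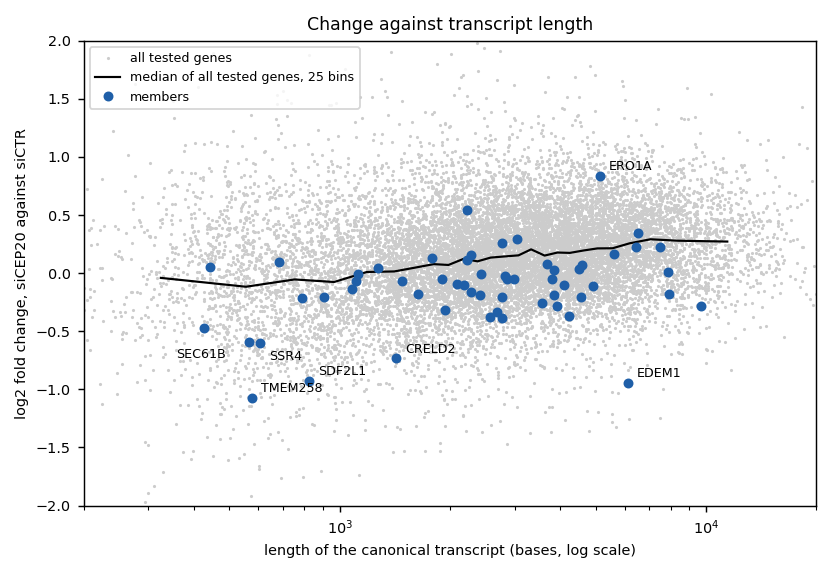
Log2 fold change (siCEP20 against siCTR) against the length of the canonical transcript (bases, log axis) for the 57 members (blue) over all tested genes (grey), with the median of all tested genes in 25 bins of length (black line). TMEM258, SEC61B, SSR4 and SDF2L1 are shorter than 1000 bases, where the line is lowest, whereas EDEM1 is 6113 bases long.

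Transcript length moved with the changes. Across all tested genes, the log2 fold change had a Spearman rho of 0.25 with the length of the canonical transcript (n = 14737 genes), and across the members 0.28 (n = 57), where the points share the same 6 libraries and genes are not independent. The 9 members shorter than 1000 bases had a median of -0.47, 4 of them were called lower and 6 fell. Of the 2166 tested genes of that length, the median was -0.07, 14.1% were called lower and 26.0% fell. The 15 members of at least 4000 bases had a median of 0.01, beside 0.24 for 4871 tested genes of that length. After a correction for length and GC content fitted in each library, TMEM258 (-0.99), EDEM1 (-1.17), SDF2L1 (-0.86), CRELD2 (-0.74) and ERO1A (0.61) were still called, while SEC61B (-0.52) and SSR4 (-0.50) fell short of the fold threshold and still passed the adjusted p.

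Over 15 other processing settings and libraries left out, 9 of the 15 members that fell passed in the same direction in every setting, namely TMEM258, EDEM1, SDF2L1, CRELD2, SSR4, SEC61B, SSR3, SRPRB and DDOST. Of the 5 that rose, ERO1A and SGTA did so. The share of all tested genes that passed in every setting was not computed, so these counts have no background beside them. In the annotation, 19 members overlap an expressed gene of the opposite strand and 6 overlap one of their own strand, and 34 have neither. Besides the pairs named above, these overlaps include SRP19 with REEP5, SRPRB with RAB6B and SPCS2 with RNU6-216P on the opposite strand. DDOST overlaps PINK1-AS on its own strand. The methods describe libraries that keep strand, but whether the counting used it is not given in the sources used here. Overlap here means overlap of whole gene spans, introns included. If strand was not used, reads from stretches that an opposite-strand pair shares may not be told apart. For stretches shared on the same strand this holds in either case. How many reads any pair shares was not tested.

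The surrounding pathway was read from 140 further genes of the same functions, of which 138 were tested. Of these, 29 rose and 31 fell, beside 30.2% and 13.2% of all tested genes, with 5 called higher and 6 called lower, beside 11.2% and 4.61%. With median-of-ratios scaling 12 of these genes rose and 50 fell, while 19.7% of all tested genes rose and 21.8% fell. The median log2 fold change of the further genes without rescaling was 0.03, which is -0.10 relative to all tested genes, and 91 of them lay below that median. Of the 6 genes of glycan trimming, 2 rose and 2 fell. GANAB, the catalytic subunit of glucosidase II, which removes glucose so that calnexin and calreticulin can bind and release a glycoprotein, was at 208, 216 and 214 TPM in siCTR and at 364, 371 and 373 TPM in siCEP20. Its groups did not overlap, with a log2 fold change of 0.80 (adjusted p = 3.12e-05 by limma). PRKCSH, the partner subunit that retains the enzyme in the ER, was at 241, 241 and 246 TPM in siCTR and at 338, 349.5 and 360.4 TPM in siCEP20, and rose by 0.52 (adjusted p = 0.000148 by limma). Both subunits were thus higher in every siCEP20 library.

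**Figure D5:**
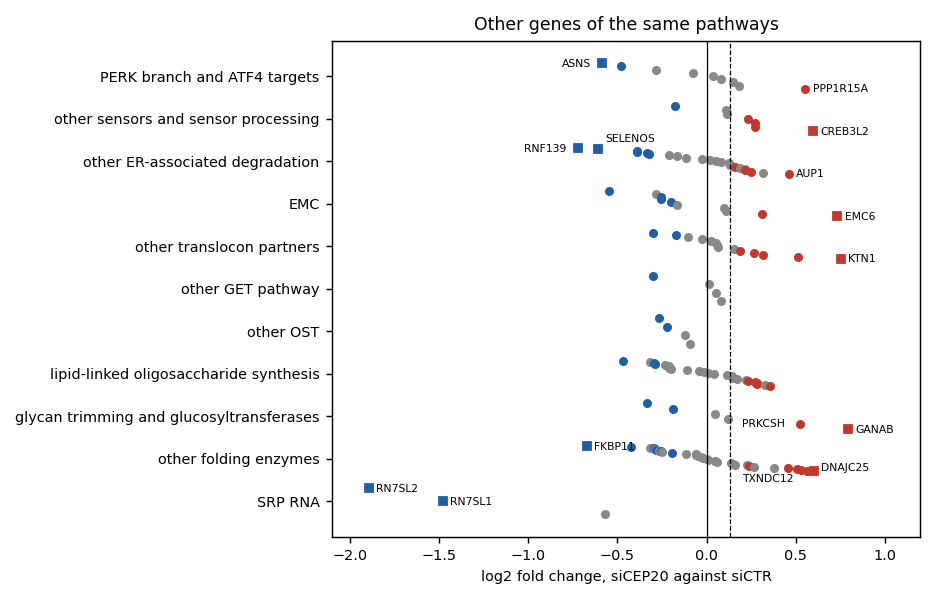
Log2 fold change (siCEP20 against siCTR) of 138 further genes of the same pathways, by function. Squares are called genes, blue and red mark genes that fell or rose at adjusted p under 0.05, and the dashed line is the median of all tested genes (0.13), with RN7SL2 (-1.89) and RN7SL1 (-1.48) at the left and GANAB (0.80) at the right.

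KTN1, which encodes kinectin, an ER membrane protein, rose from 50.3 ± 2.42 to 85.6 ± 2.75 TPM (SD, n = 3 per group, log2 fold change 0.76, adjusted p = 9.37e-05 by limma). The other genes called higher were EMC6 (0.73), a subunit of the ER membrane complex, DNAJC25 (0.60), a J-protein, and CREB3L2 (0.60), a transcription factor anchored in the ER. EMC6 was at 193 TPM in siCEP20 replicate 2 and at 112 and 106 TPM in the other 2 siCEP20 libraries, and without replicate 2 its log2 fold change was 0.46, under the fold threshold. EMC6 also did not pass without siCTR replicate 1 (0.74) or 2 (0.66), or with median-of-ratios scaling (0.58, adjusted p = 0.0504 by limma). The calls of DNAJC25 (0.50 without siCEP20 replicate 2, 0.56 without siCTR replicate 1) and CREB3L2 (0.58 without siCEP20 replicate 3, 0.53 without siCTR replicate 1) were lost at the fold threshold. CREB3L2 was also under it with median-of-ratios scaling (0.45), quantile normalization (0.47) and the length and GC correction (0.36). KTN1 was under it with the length and GC correction (0.54). Of the 23 tested further genes of ER-associated degradation, 4 rose and 6 fell, among them the called genes SELENOS (-0.61), which links the p97 ATPase to the membrane, and RNF139 (-0.72), a ubiquitin ligase. FKBP11 (-0.67), a prolyl isomerase, and ASNS (-0.59), the asparagine synthetase induced by ATF4, were also called lower, and EMC9 fell by 0.55 under the fold threshold. ASNS was 1 of 9 genes listed for the PERK branch and ATF4 targets. Of these, 2 fell, 1 rose (PPP1R15A, 0.55) and 6 did not pass, with -0.07 for ATF4 itself. The call of SELENOS was lost at the fold threshold without siCEP20 replicate 1 (-0.57) or siCTR replicate 2 (-0.56), and that of ASNS without siCEP20 replicate 1 or 2 (-0.55 each) or siCTR replicate 3 (-0.53).

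Of the 3 tested genes for the RNA of SRP, which is transcribed by RNA polymerase III, carries no poly(A) tail and has many copies in the genome, 2 were called lower. RN7SL3, at 1.41 TPM in siCTR and 0.715 TPM in siCEP20 on average, did not pass (log2 fold change -0.57). RN7SL1 was at 21.1, 36.6 and 22.5 TPM in siCTR and 8.79, 10.3 and 7.13 TPM in siCEP20. RN7SL2 was at 10.1, 11.4 and 13.3 TPM in siCTR and 2.39, 4.07 and 1.24 TPM in siCEP20. The TPM of RN7SL1 and RN7SL2 did not overlap between groups, with log2 fold changes of -1.48 and -1.89 (adjusted p = 0.000946 and 0.000956 by limma). In the annotation RN7SL1 overlaps the ribosomal protein gene RPS29 on the opposite strand, and RN7SL2 overlaps another expressed gene on its own strand. The libraries were made from poly(A) RNA, and how far these values follow the level of an RNA without that tail was not tested.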

How the data were processed

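Poly(A) RNA of 3 siCTR and 3 siCEP20 samples was sequenced. Per the submitters' processing notes, reads were trimmed with fastp 0.20.1, aligned to hg38 with HISAT2 2.1.0 and quantified with StringTie 2.0, and the authors deposited the TPM of each Ensembl gene. The annotation release and the treatment of reads with several matches are not given in the sources used here. TPM holds no counts, so depth is unknown and no counting interval was computed.

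Genes were named and placed with GENCODE release 44. Genes whose mean reached 1 TPM were tested by limma 3.58.1 (R 4.3.3; functions lmFit and eBayes, trended) on log2(TPM + 1), without rescaling or a replicate term, with Benjamini-Hochberg adjustment over all tested genes. Log2(TPM + 1) understates changes of genes with low TPM. The authors' own differential expression test was not used here. Transcript length and GC content came from the canonical transcript (99.7% of tested genes), and the correction subtracted a loess curve (span 0.5) per library. Other steps ran in Python 3.11.15 with pandas 2.3.3, numpy 2.4.6, matplotlib 3.10.9 and scipy 1.17.1. The fit was tested on simulated data.

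The members and the lists of further genes were chosen with earlier results of these data known. Values per library are given for CEP20, called members and the 2 members with the smallest adjusted p in each group. Of the further genes, the 3 with the smallest adjusted p in each direction and those called are named. HSPA5, MANF, SEC61G and genes overlapping a member were added to these after their values were seen. Some marker genes are not reported here. The paper's methods name DMEM, TRIzol and 1 µg of RNA, while the labels name F-12K, a spin-column kit and 3 µg. The alternatives were another pseudocount (0.1), filter (none, or 5 TPM), scaling or fold threshold (2), eBayes without a trend, the replicate block, protein-coding genes only, the length and GC correction, and each library left out.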

Additional observations from a re-analysis of the deposited data

How the results depend on the processing

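With a fold threshold of 2, 0 members were called higher and 1 lower, and the shares of all tested genes at that threshold are not reported here. Members that rose numbered 3 with no filter on low TPM, with quantile normalization and with eBayes without a trend, 2 with median-of-ratios scaling and with the length and GC correction, and 3 to 6 with 1 library left out (3 without siCEP20 replicate 2 or 3 or siCTR replicate 1). Of all tested genes, 12.4%, 21.4%, 29.3%, 19.7% and 19.9% rose in these 5 settings in that order. With 1 library left out, 22.7% to 29.3% of all tested genes rose. Members that fell numbered 9 with no filter, 33 with median-of-ratios scaling and 29 with the length and GC correction. In the same order, 5.45%, 21.8% and 21.3% of all tested genes fell, beside 13.2% in the fit without rescaling. The members' median relative to all tested genes was -0.13 with no filter, -0.11 with quantile normalization and -0.28 to -0.19 with 1 library left out. Among the 26 members that passed or had the 2 smallest adjusted p of their group, quantile normalization turned the log2 fold change of HSPA5 to 0.073, of CALR to 0.21 and of CANX to 0.00032, median-of-ratios scaling that of XBP1 to -0.028, and the length and GC correction those of ATF6 to -0.029 and SEC63 to -0.019. Over all 57 members, the signs of 11, 8 and 9 turned with median-of-ratios scaling, quantile normalization and the length and GC correction. With 1 library left out, CALR ranged from -0.14 to 0.040 and CANX from -0.28 to 0.042, with the sign turned without siCTR replicate 2 in both, without siCEP20 replicate 1 for CALR (0.0044) and without siCEP20 replicate 3 for CANX (0.0046). With no filter, low genes enter both the fit and the adjustment, and the cause of these changes was not tested for any setting. Of 390 values of 26 members under 15 settings, 328 kept direction and side of the threshold, 46 no longer passed, 6 newly passed and 10 turned. The 6 members called lower were also called lower under each setting other than the fold threshold, the length and GC correction and the removal of siCEP20 replicate 1 or 3 or siCTR replicate 2, and ERO1A was called under each setting but the fold threshold. Replicate numbers were shared by the groups, but same-numbered libraries did not deviate together (correlations 0.157, -0.061 and -0.062). With the replicate block 6 members rose and 16 fell, beside 28.9% and 12.6% of all tested genes, and 1 and 6 members were called. TPM gives no depth, and 3 libraries per group limit the precision.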
